A study of Mus musculus with 10 samples.

Results

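Testosterone given back to castrated mice was followed by large changes in the expression of prostate luminal cells, and the arrays of those cells are compared here with arrays of cells from mice that stayed castrated. The comparison rests on 7 of the 10 arrays of the study, chosen by their titles: 3 castrated arrays and 4 arrays of mice castrated and then given testosterone, called regenerated below. All mice were male and carried Hoxb13-rtTA and TetO-H2BGFP, a transactivator under the promoter of the prostate homeobox gene Hoxb13 that switches on a histone-bound green fluorescent protein when doxycycline is given. Castration was surgical at 12 weeks of age and was followed by 6 weeks of regression, and the regenerated group then had 4 weeks of testosterone from a subcutaneous silastic implant. Every mouse drank doxycycline at 2 mg/ml for 1 week before collection, in both groups. Luminal cells were sorted as positive for the fluorescent protein and CD24, intermediate for CD49f, and negative for the leukocyte proteins CD45, F4/80 and CD11b. The 3 intact arrays of the study enter here only through the shared estimate of the spread between arrays.

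Luminal cells line the prostate glands and secrete most of the proteins of prostatic fluid, and they need androgen for it. Androgen binds the androgen receptor, a transcription factor, and its loss leads to regression of the gland in which part of the luminal cells die and the survivors stop much of their secretion. Androgen given back makes the gland regrow and secrete again, which is why cycles of castration and testosterone are used to study the cells that survive. Secretion also loads the endoplasmic reticulum (ER), where secreted proteins are folded, checked and given their first sugars before transport to the Golgi apparatus.

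Values are log2 intensities from whole-transcript microarrays, given in the order of the replicate numbers, and a difference of 1 stands for a doubling. Changes are regenerated minus castrated, with their standard error (SE) and adjusted p from limma with Benjamini-Hochberg adjustment over 30142 genes, and a gene is called at an adjusted p under 0.05. No group was left castrated for as long as the regenerated mice were, so testosterone cannot be told apart from 4 further weeks since castration or from age. Whether each array stands for 1 mouse or for pooled mice is not stated, so the p-values reflect only how much these samples differ from each other. RNA came from sorted populations, in which fewer cells of a type and less RNA per cell cannot be told apart. Background control rows reached 6.40 in castrated replicate 3 and 4.66 to 5.58 in the other arrays, so the size of a change that starts or ends under such values depends on that floor. The median of these rows was 3.03. The highest value, 6.40, is called the background limit below, and in 20334 of the 30142 genes both group means lay at or under it. Epithelial markers were high: Krt18 was 16.66 or higher and Epcam 13.85 or higher in each of the 7 arrays, while Ptprc, which encodes CD45, stayed between 3.55 and 3.74 and Adgre1, which encodes F4/80, between 3.72 and 3.91. Of 17 measured luminal identity genes, 2 were called higher and 2 lower, where all genes tested gave 1.97% and 3.01%. Without regenerated replicate 4 it was 2 and 5. The list's median change was -0.66 log2. The higher count was 0 without castrated replicate 2 or 3 or regenerated replicate 2 or 3. Regenerated replicate 4 stood apart from the other 3 regenerated arrays. On the first principal component of the 7 arrays, with 50.8% of the variance, it lay at -41.7 among the other regenerated arrays (-48.9 to -38.5) and away from the castrated arrays (56.2 to 61.8). On the second, with 23.2%, it lay at -71.9 against 2.4 to 35.2 for the other 3, so the main counts are also given without it.

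Of the 30142 genes, 593 (1.97%) were called higher and 907 (3.01%) lower in regenerated arrays, 1500 (4.98%) in all. Every list count below is to be read beside these shares. Without regenerated replicate 4, 1076 genes (3.57%) were called higher and 1051 (3.49%) lower. The share of higher genes among those called was 39.5% with all arrays and 50.6% without replicate 4. It was 43.7% with each array centred on its median and 49.4% after another quantile normalization. Both fits called 1383 genes, all of them in the same direction, whereas 744 genes were called only without replicate 4, 515 of them higher. The 4 regenerated and 3 castrated arrays did not overlap in 16% of all genes and in 1495 of the 1500 called genes. Changes of at least 1 log2 were called in 438 higher and 589 lower genes, and changes of at least 3 log2 in 86 higher and 57 lower genes. The median change over all genes was -0.01 log2. The counts leaned on single arrays: without castrated replicate 2 the total fell to 816 (290 higher and 526 lower), without regenerated replicate 2 to 871 (333 and 538) and without regenerated replicate 3 to 934 (363 and 571), and without castrated replicate 3 the higher genes fell to 379.

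**Figure D1:**
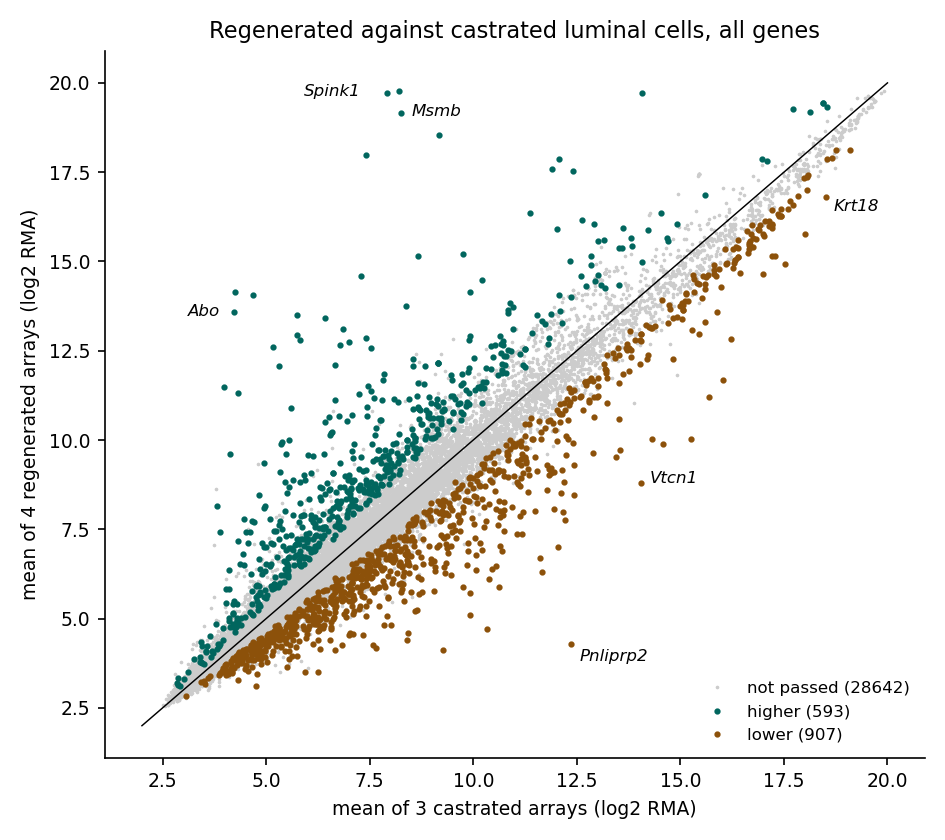
Mean of the 4 regenerated arrays (vertical axis) against the mean of the 3 castrated arrays (horizontal axis), both in log2 RMA units, with 1 point per gene and a line of equality. The 593 genes called higher are green and the 907 called lower are brown, and Spink1 and Msmb lie at the top left, near the highest values of the scale.

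The largest rises were in genes for proteins of prostatic fluid and for protease inhibitors. Spink1, a secreted trypsin inhibitor, read 7.31, 6.20 and 10.25 in the castrated arrays and 19.89, 19.68, 19.84 and 19.49 in the regenerated arrays. The regenerated values lie close to 19.93, the highest value of the table, so the rise of 11.81 ± 0.71 log2 (SE, limma adjusted p = 1.94e-05) may be understated. For Msmb, the gene of beta-microseminoprotein, values went from 7.17, 10.50 and 7.07 to 19.40, 19.29, 19.37 and 18.59 (10.91 ± 0.70 log2, limma adjusted p = 2.3e-05). Both genes show 1 castrated array about 3 log2 above the others, castrated replicate 3 for Spink1 and castrated replicate 2 for Msmb, and the regenerated arrays stay far above it. Tgm4, the transglutaminase that cross-links semen proteins, had 5.65, 7.49 and 9.12 in castrated arrays and 16.78, 18.63, 17.12 and 19.40 in regenerated ones (10.56 ± 0.79 log2, limma adjusted p = 5.96e-05). Replicate 4 was the highest of the 4 for Tgm4 and the lowest for Spink1 and Msmb.

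Other secreted products started from values near or under the background limit. Wfdc3, a small protein with a whey acidic protein domain, was 4.68, 4.89 and 4.47 in castrated and 15.02, 14.68, 14.33 and 12.19 in regenerated arrays (9.38 ± 0.56 log2, limma adjusted p = 1.94e-05). The secretoglobin gene Scgb2b20 read 5.32, 5.16 and 5.01 against 14.76, 11.98, 13.60 and 10.05 (7.44 ± 0.92 log2, limma adjusted p = 0.00144). Spink5, a relative of Spink1 that blocks kallikrein proteases of skin, read 5.38, 5.29 and 6.57 against 14.71, 13.66, 12.26 and 11.10 (7.18 ± 0.72 log2, limma adjusted p = 0.000459). In each of these 3 genes the groups did not overlap, which the choice of the largest rises required, and replicate 4 was the lowest regenerated array. Scgb2b7 showed the same order, with 8.92 in replicate 4 and 10.78 to 13.92 in the other regenerated arrays, against 3.69 to 4.37 in castrated arrays.

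Sbp, which encodes a spermine-binding protein of prostatic fluid, was well above background before testosterone: 11.77, 12.29 and 12.17 in castrated arrays and 18.08, 17.79, 18.04 and 17.61 in regenerated ones (5.80 ± 0.18 log2, limma adjusted p = 9.76e-08). Pbsn, probasin, whose promoter is the classic androgen-driven promoter of the mouse prostate, moved less: 17.72, 17.44 and 17.96 against 19.28, 19.25, 19.10 and 19.39 (1.55 ± 0.17 log2, limma adjusted p = 0.000871). Its regenerated values also lie near the top of the scale. Apof, an apolipoprotein gene, rose by 5.87 ± 0.49 log2. Of 29 measured prostate secretory products, 17 were called higher and 1 lower with all arrays, and 18 and 1 without replicate 4, where all genes tested gave 1.97% and 3.01%. The list's median change was 3.18 log2. The lower gene was Rnase1, a secreted ribonuclease named here after its values were seen, with 13.97, 13.88 and 14.24 in castrated and 10.89, 12.83, 12.07 and 12.73 in regenerated arrays (limma adjusted p = 0.0294, and 0.0995 without castrated replicate 3).

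Large rises were also found in enzymes, transporters and inhibitors that are not themselves prostatic fluid proteins. Abo, which encodes the glycosyltransferase of the ABO blood group antigens, read 4.17, 4.22 and 4.25 in castrated arrays and 14.95, 13.60, 14.36 and 11.41 in regenerated arrays (9.36 ± 0.71 log2, limma adjusted p = 6.58e-05). Papss2, which makes the sulfate donor used by sulfotransferases, went from 7.37, 7.36 and 7.13 to 16.01, 14.09, 14.98 and 13.30 (7.31 ± 0.61 log2, limma adjusted p = 0.000148). Timp4, an inhibitor of metalloproteinases, read 6.48, 7.26 and 5.48 against 14.99, 13.35, 14.21 and 11.16 (7.02 ± 0.77 log2, limma adjusted p = 0.000747). Replicate 4 was again the lowest regenerated array in all 3 genes and stayed above each castrated array. The complement C1r family members and a channel-associated gene showed the opposite order. C1rb read 7.06, 6.38 and 7.12 in castrated and 11.26 to 15.91 in regenerated arrays with replicate 4 the highest, and Tcaf3, which encodes a TRPM8 channel-associated factor, 8.82, 7.59 and 9.61 against 12.58, 15.90, 14.14 and 17.94. C1ra reached 12.04 in replicate 4 and 7.97 to 9.90 in the other 3.

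**Figure D2:**
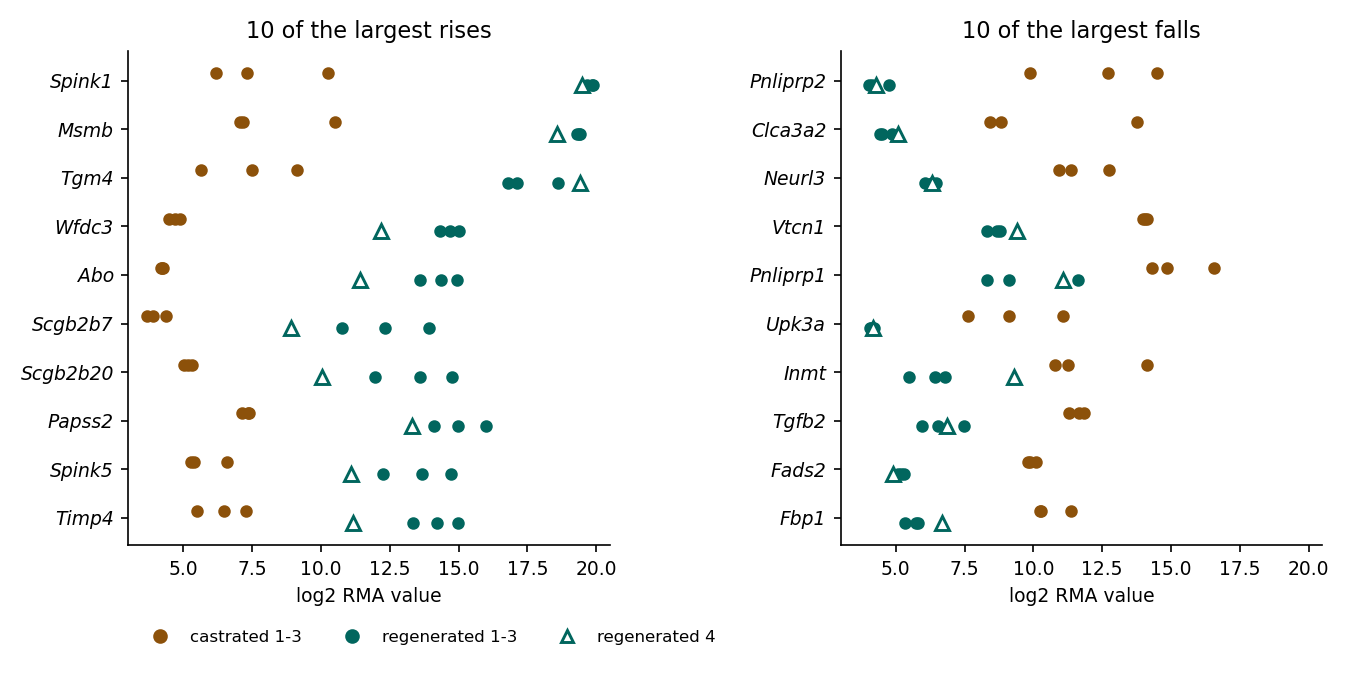
Log2 RMA values (horizontal axis) of 10 of the largest rises (left) and 10 of the largest falls (right), with 1 point per array: brown for the 3 castrated arrays, green for regenerated replicates 1 to 3 and open triangles for regenerated replicate 4. The groups do not overlap in any of the 20 genes, which was a condition of their choice. Replicate 4 is the lowest regenerated array for Wfdc3, Abo, Scgb2b7, Scgb2b20, Papss2, Spink5 and Timp4.

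The folding machinery of the ER rose with these products. Its genes are known to share a promoter element, the ER stress element, which is bound by the unfolded protein response factors together with the CCAAT-box factor NF-Y, and the promoters of the members are shown for that reason. The element was searched as CCAAT, any 9 bases, then CCACG, on both strands, in RefSeq promoter windows of the GRCm38.p6 assembly from 250 bases before to 50 bases after each gene start. It was found in 10 of the 44 ER list members with a window (22.7%), against 29 of 17970 genes tested with a window (0.161%). The 10 genes and their 19-base elements are given here, with the searched letters in capitals and the free bases in lower case, each read on the strand that holds CCAAT.
Calr: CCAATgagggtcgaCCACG
Canx: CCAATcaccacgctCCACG
Creld2: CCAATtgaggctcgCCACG
Derl3: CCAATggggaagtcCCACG
Dnajc3: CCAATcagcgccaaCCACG
Ero1b: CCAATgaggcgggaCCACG
Hsp90b1, further from its start: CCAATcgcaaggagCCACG
Hsp90b1, nearer to its start: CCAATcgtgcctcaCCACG
Hspa5: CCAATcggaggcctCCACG
Pdia6: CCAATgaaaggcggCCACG
Syvn1: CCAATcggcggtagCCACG

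The promoters of Hspa5 and Derl3 show how the element sits before the start. For Hspa5, the main ER chaperone, the 250 bases before the start lie at chr2:34771840-34772089 on the plus strand, and the element, in capitals, starts at position -65.
Hspa5: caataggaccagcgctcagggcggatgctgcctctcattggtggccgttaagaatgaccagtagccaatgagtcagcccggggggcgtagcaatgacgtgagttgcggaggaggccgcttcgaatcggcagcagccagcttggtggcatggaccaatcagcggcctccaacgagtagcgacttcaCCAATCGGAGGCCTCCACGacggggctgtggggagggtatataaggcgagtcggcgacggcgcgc
For Derl3, a channel component that moves misfolded proteins out of the ER, they lie at chr10:75893148-75893397 on the plus strand. There the element reads on the other strand, so its capitals begin with the complement of CCACG at position -156.
Derl3: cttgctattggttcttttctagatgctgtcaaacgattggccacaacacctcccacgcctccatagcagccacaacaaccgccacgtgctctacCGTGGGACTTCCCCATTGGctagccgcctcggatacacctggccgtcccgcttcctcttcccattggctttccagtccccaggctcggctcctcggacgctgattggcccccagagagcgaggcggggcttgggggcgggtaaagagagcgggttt

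Of the 10 genes with the element, 8 were called higher with all arrays. Derl3 read 7.94, 6.49 and 5.59 in castrated arrays and 10.61, 11.30, 11.74 and 10.86 in regenerated arrays (4.45 ± 0.56 log2, limma adjusted p = 0.00158). Hspa5 read 13.12, 12.42 and 13.00 against 15.03, 14.80, 14.60 and 15.19 (2.06 ± 0.22 log2, limma adjusted p = 0.000695). Replicate 4 lay among the other regenerated arrays for Derl3 and was the highest for Hspa5. Creld2, an ER chaperone for disulfide-rich proteins, rose by 3.54 ± 0.54 log2, and Dnajc3, a co-chaperone of Hspa5, by 2.72 ± 0.29. Calr, which holds glycoproteins during folding, rose by 2.68 ± 0.29, the disulfide isomerase Pdia6 by 2.29 ± 0.25, the ubiquitin ligase Syvn1 of ER degradation by 2.23 ± 0.30, and the chaperone Hsp90b1 by 1.83 ± 0.17. The 2 others passed only without replicate 4. Ero1b, an oxidase that drives disulfide formation, read 4.77, 4.65 and 4.68 in castrated arrays, 7.87, 7.26 and 8.45 in regenerated replicates 1 to 3 and 4.78 in replicate 4 (limma adjusted p = 0.0838, and 0.000622 without replicate 4). Canx, the membrane-bound relative of Calr, read 13.03, 12.49 and 13.20 against 13.74, 14.13, 14.08 and 13.24 in replicate 4 (limma adjusted p = 0.0878, and 0.018 without it).

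Calls in the list were not limited to genes with the element. Of 34 members with a window that lack these letters, 22 were also called higher. Among them are Sdf2l1, a partner of the Hspa5 chaperone cycle, at 4.22 ± 0.56 log2 and Fkbp11, a prolyl isomerase of secretory cells, at 2.92 ± 0.34. Of 19 genes outside the list that hold the element, Alg12 was called (1.47 log2, limma adjusted p = 0.0115), and its window shares the element with that of Creld2, its neighbour on the opposite strand. Among all genes called higher with a window, 9 of 433 (2.08%) hold the element. Among those called lower it is 0 of 526.

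In the whole ER folding and degradation list, 37 of 56 measured members were called higher with all arrays and 45 without replicate 4, where 1.97% and 3.57% of all genes were. All 56 fitted changes were above 0 and their median was 1.57 log2. The list median by array was 11.05, 10.57 and 10.76 in castrated arrays and 12.11, 12.42, 12.49 and 12.04 in regenerated arrays, so the groups did not overlap and replicate 4 was the lowest regenerated array by a small margin. The list held 3 entries that were not measured under a single symbol and are not analysed here. Among unfolded protein response factors, Xbp1 read 13.24, 12.90 and 13.53 against 13.71, 13.44, 13.56 and 12.96 (limma adjusted p = 0.76) and was not called. Atf6 read 11.21, 11.18 and 10.99 against 11.67, 12.11, 11.95 and 12.66, without overlap, and lay at the threshold. Its limma adjusted p was 0.0504 with all arrays and 0.0355 without regenerated replicate 4, and it also passed without regenerated replicate 1 and with array weights, median centring, no trend or the background filter (0.0243 to 0.0469 over these settings). These 2 were picked after their values were seen.

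The next steps of the secretory route moved the same way in fewer members. Of 49 genes for transport between ER and Golgi, 14 were called higher, where 1.97% of all genes were. It was 8 without castrated replicate 2 and 23 without regenerated replicate 4. Kdelr3, a receptor that returns escaped ER proteins, read 5.63, 5.35 and 5.55 in castrated arrays and 8.56, 8.98, 8.93 and 7.55 in regenerated arrays (2.99 ± 0.34 log2, limma adjusted p = 0.000943). Uso1, which tethers vesicles to the Golgi, rose by 2.19 ± 0.28, the vesicle coat subunit Copb2 by 2.00 ± 0.29, the cargo receptor family member Tmed3 by 1.99 ± 0.20, and Preb, the exchange factor that starts coat assembly at the ER, by 1.67 ± 0.22. The groups of arrays did not overlap in any of these 5 genes. Of 57 glycosylation enzymes, 11 were called higher, against the same 1.97%. It was 17 without replicate 4 and 7 without either castrated replicate 3 or regenerated replicate 2. After Abo, the largest were B4galt6, a galactosyltransferase of glycolipids, at 3.63 log2, and Galnt4, which starts O-linked sugar chains, at 2.80. Man1a, a Golgi mannosidase of N-glycan processing, followed at 2.36, with 9.16, 9.88 and 9.36 against 10.35, 12.10, 11.44 and 13.42 and replicate 4 the highest. Man2a1, another such mannosidase, rose by 2.14 log2.

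Genes that supply amino acids and charged transfer RNAs changed in smaller numbers. In the amino acid synthesis list, which includes targets of the transcription factor Atf4, 6 of 35 were called higher, and 10 without replicate 4. All genes tested gave 1.97% and 3.57%. Mthfd2, a mitochondrial enzyme of the folate cycle, rose by 2.68 log2 (limma adjusted p = 0.000192), Phgdh, the first enzyme of serine synthesis, by 2.32 and the glutamine transporter Slc1a5 by 1.29. Ddit4, an inhibitor of mTORC1 signalling, rose by 1.83 log2. Among 18 aminoacyl-tRNA synthetases, 4 were called higher: Tars (1.60 log2), Nars (1.31), Lars (1.17) and Yars (0.73). Without replicate 4 it was 3, since Lars no longer passed (limma adjusted p = 0.0644). Without castrated replicate 3 or regenerated replicate 2 it was 1, and without intact replicate 1 or 2, castrated replicate 2 or regenerated replicate 3 it was 2.

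Aldehyde dehydrogenases, which oxidise aldehydes and in part make retinoic acid, gave 7 higher and 1 lower of 20, also without replicate 4. The lower count was 0 without castrated replicate 3 or regenerated replicate 1 or 2. With all arrays 1.97% of all genes were higher and 3.01% lower. Aldh1a7 read 5.36, 5.45 and 6.01 in castrated arrays and 11.22, 10.97, 11.23 and 10.16 in regenerated arrays (5.29 ± 0.42 log2, limma adjusted p = 9.34e-05). Its close relative Aldh1a1 read 4.90, 5.36 and 5.78 against 10.13, 10.26, 10.43 and 8.80 (4.56 ± 0.39 log2, limma adjusted p = 0.000191). The 2 genes are alike in sequence, so their signals may be shared. Aldh3a2, which acts on fatty aldehydes, rose by 3.89 log2, Aldh6a1, of valine breakdown, by 3.24 and Aldh3b2 by 2.57, and the regenerated arrays stood above the castrated ones in all 3.

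In lipid, polyamine and zinc handling few genes passed, and the list counts were small. Scd1, which makes monounsaturated fatty acids, read 10.15, 9.84 and 9.74 in castrated arrays and 13.93, 13.24, 13.61 and 10.87 in regenerated arrays (3.00 log2, limma adjusted p = 0.0194, and 0.071 without castrated replicate 2). Fads2, the desaturase of polyunsaturated fatty acids, went the other way with little spread: 10.11, 9.87 and 9.80 against 5.17, 5.28, 5.07 and 4.89 (fell by 4.83 ± 0.15 log2, limma adjusted p = 1.06e-07). Mvd, of sterol synthesis, was the third called gene of 33 in that list, at 0.63 log2. The list had 2 higher and 1 lower, or 4 and 1 without regenerated replicate 4, and 0 higher without castrated replicate 2 or 3 or regenerated replicate 2 or 3. Srm, which makes spermidine, rose by 2.13 log2 and Odc1, the ornithine decarboxylase that starts the pathway, by 1.60, whereas Idh1, the cytosolic isocitrate dehydrogenase, fell by 2.95. Without castrated replicate 2 or 3 or regenerated replicate 1, 2 or 3 the higher count of that list was 1. Of 26 zinc transporters and metallothioneins, Slc30a10 (2.16 log2) and Slc39a7 (1.83) were called higher and Slc39a8 (-1.40) lower, and without replicate 4 the counts were 6 and 2. The higher count was 1 without any single array among the 3 intact, the 3 castrated and regenerated replicates 2 and 3. The lower count was 0 without any single one of those arrays except intact replicate 3.

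Genes known as androgen receptor targets were called in both directions, 6 higher and 4 lower of 34, where all genes tested gave 1.97% and 3.01%. Without replicate 4 it was 9 and 5, where all genes gave 3.57% and 3.49%. The lower count was 1 without castrated replicate 3 and 2 without regenerated replicate 3. Fkbp5, a co-chaperone of steroid receptors, read 5.52, 5.58 and 5.81 in castrated arrays and 8.37, 8.15, 8.24 and 6.86 in regenerated arrays (2.27 ± 0.37 log2, limma adjusted p = 0.00593). Mme, a membrane peptidase also known as CD10, rose by 3.52 log2, Gnmt, a glycine methyltransferase, by 2.69, Hpgd, which inactivates prostaglandins, by 2.59 and the transcription factor Zbtb16 by 1.99. The lower genes were Nfkbia, the inhibitor of NF-kB (-1.77 log2), the ubiquitin ligase Nedd4l (-1.60), the metalloreductase Steap2 (-1.21) and Pmepa1, an inhibitor of TGF-beta signalling (-0.62). Tmprss2, a serine protease that androgen raises in human prostate, read 10.58, 9.85 and 10.62 against 10.86 to 11.75 and was not called (limma adjusted p = 0.106). The androgen half-site, the letters AGAACA on either strand, was found in 13.9% of promoter windows of genes called higher, 16.7% of those called lower and 19.2% of all genes tested. A full element, a pair of half-sites 3 bases apart with up to 2 mismatches, was in 2.08%, 2.09% and 1.87%. These short windows leave out distant enhancers.

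Among 21 transcription factors of the prostate lineage, 3 were called higher, where 1.97% of all genes were: Hoxb13, Spdef and Bhlha15. Hoxb13 read 7.93, 7.75 and 7.54 in castrated arrays and 10.27, 9.61, 9.76 and 8.26 in regenerated arrays (1.74 ± 0.39 log2, limma adjusted p = 0.0321). Without regenerated replicate 4 the limma adjusted p was 0.000591, and without castrated replicate 3 it was 0.105. Hoxb13 also drives the fluorescent reporter by which the cells were sorted, and the part of that gate in the result was not tested. Spdef, a factor of secretory epithelia, rose (limma adjusted p = 0.0188), and Bhlha15, also called Mist1, which builds the secretory apparatus of exocrine cells, rose by 0.67 log2, under the background limit in all 7 arrays. The count was 0 without castrated replicate 2 or 3 or regenerated replicate 2 or 3, and 1 without castrated replicate 1 or intact replicate 1 or 2. Esr1, the estrogen receptor alpha, fell by 0.94 log2 (limma adjusted p = 0.0407, and 0.153 without castrated replicate 2), with 7.43, 7.75 and 7.20 in castrated arrays, 6.21 to 6.46 in regenerated replicates 1 to 3 and 7.11 in replicate 4.

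**Figure D3:**
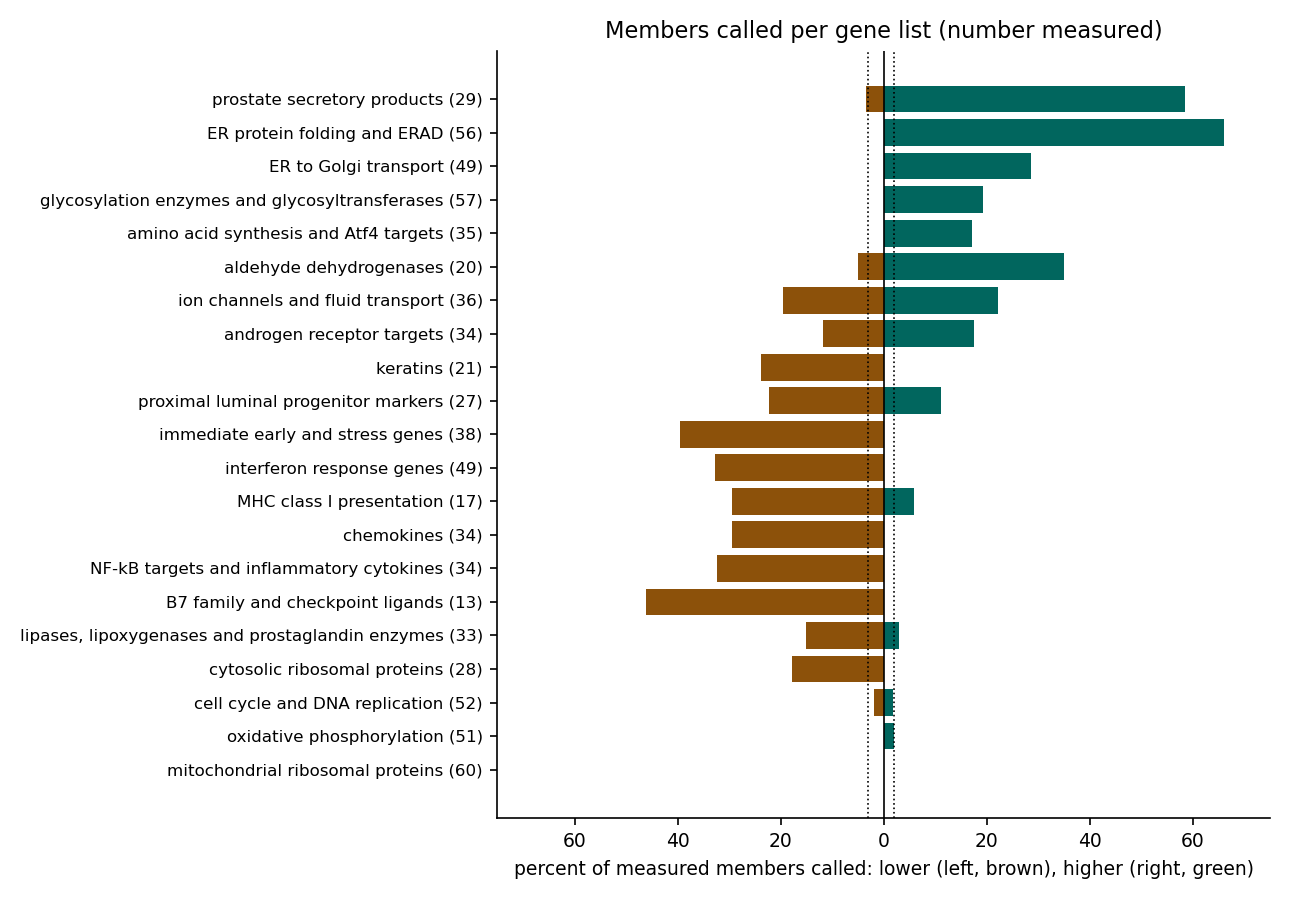
Percent of the measured members of 21 gene lists that were called lower (brown, to the left of 0) or higher (green, to the right) in regenerated arrays with all 7 arrays of the comparison, with the number measured in parentheses. Dotted lines mark the share of all genes called, 3.01% lower and 1.97% higher, and the ER folding list reaches furthest to the right with 37 of 56 members.

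The largest falls were in genes of several kinds, among them lipase-related genes, a calcium-activated channel regulator and the B7 ligand Vtcn1. Several of them ended at background. Pnliprp2, a pancreatic lipase-related gene, read 12.71, 9.88 and 14.48 in castrated arrays and 4.14, 4.77, 4.01 and 4.28 in regenerated arrays (fell by 8.05 ± 0.80 log2, limma adjusted p = 0.000451). Pnliprp1 read 14.87, 14.31 and 16.58 against 8.31, 11.63, 9.11 and 11.08 (fell by 5.22 ± 0.78 log2, limma adjusted p = 0.00392). In the regenerated arrays Pnliprp2 was thus under the background limit in all 4 and Pnliprp1 above it in all 4. Clca3a2, of the calcium-activated chloride channel regulators, read 8.81, 8.43 and 13.77 against 4.41, 4.48, 4.85 and 5.07 (fell by 5.64 ± 1.01 log2, limma adjusted p = 0.0103), with castrated replicate 3 well above the other castrated arrays. Alox12, a lipoxygenase, fell by 4.28 log2 and Lpl, lipoprotein lipase, by 2.57. In the list of lipases, lipoxygenases and prostaglandin enzymes 5 of 33 were lower and 1 was higher, where all genes tested gave 3.01% and 1.97%. Hpgd was the higher one, and 2 were higher without regenerated replicate 1 or 4.

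Vtcn1, a B7 family ligand that inhibits T cells, fell with very little spread among castrated arrays: 14.14, 13.97 and 14.05 against 8.31, 8.80, 8.67 and 9.39 (fell by 5.26 ± 0.27 log2, limma adjusted p = 9.95e-06). Of 13 members of the B7 family and related checkpoint ligands, 6 were called lower, where 3.01% of all genes were. It was 5 without regenerated replicate 4 and 3 without castrated replicate 2. Lgals9, galectin-9, fell by 2.10 log2, as did Pvr, a ligand of T and natural killer cell receptors (-2.03), Cd276 (-0.87) and Cd274, the ligand of PD-1 (-0.68, under the background limit in all 7 arrays). The sixth was Tnfrsf14, which did not pass without replicate 4 (limma adjusted p = 0.0534). Neurl3, an E3 ubiquitin ligase gene, read 12.73, 10.93 and 11.35 against 6.46, 6.33, 6.07 and 6.33 (fell by 5.37 ± 0.36 log2, limma adjusted p = 3.27e-05). Sectm1b, which encodes a secreted and transmembrane protein, fell by 4.44 log2, and Casp4, a caspase that senses bacterial lipopolysaccharide, by 4.26.

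Part of the interferon response genes fell in regenerated arrays. Of 49 measured, 16 were called lower and 0 higher by limma, where 3.01% of all genes were lower, and 32 had an unadjusted p under 0.05. The list's median change was -0.98 log2. Without regenerated replicate 4 it was 15 lower and 2 higher. The count rested on single castrated and regenerated arrays, at 5 without castrated replicate 3, 7 without regenerated replicate 2, 8 without regenerated replicate 3 and 10 without intact replicate 2. Rtp4, an interferon-induced chaperone of receptors, read 9.12, 7.80 and 10.25 in castrated arrays and 7.14, 5.83, 6.37 and 7.06 in regenerated arrays (fell by 2.45 ± 0.59 log2, limma adjusted p = 0.0419, and 0.131 without castrated replicate 3). Ifitm3, which blocks virus entry, read 10.11, 9.48 and 11.24 against 7.76, 8.55, 7.82 and 8.39 (fell by 2.14 ± 0.48 log2, limma adjusted p = 0.03, and 0.0995 without castrated replicate 3). Castrated replicate 3 was the highest array for both genes, and the lowest castrated array stayed above the highest regenerated one. Usp18, which removes the ubiquitin-like protein Isg15, fell by 2.13 log2 and Xaf1 by 1.83.

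Igtp, an interferon-induced GTPase that attacks vacuoles of parasites, is shown with its promoter because it holds the interferon-stimulated element, searched as GAAA, any 2 bases, GAAA on both strands. The 250 bases before its start lie at chr11:58199306-58199555 on the plus strand of GRCm38.p6 in RefSeq, with the element in capitals from position -34.
Igtp: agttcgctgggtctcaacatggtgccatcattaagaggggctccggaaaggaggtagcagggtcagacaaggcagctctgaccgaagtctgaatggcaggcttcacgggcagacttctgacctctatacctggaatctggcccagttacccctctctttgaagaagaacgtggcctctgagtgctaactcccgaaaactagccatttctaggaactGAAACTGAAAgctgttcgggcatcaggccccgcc
Its values were 7.16, 7.65 and 8.84 in castrated arrays and 6.12, 5.24, 6.04 and 6.18 in regenerated arrays (fell by 1.99 ± 0.39 log2, limma adjusted p = 0.0164). The element occurs in 20 of 38 list members with a window, in 6.84% of the genes called lower and in 3.85% of all genes tested. Of the 20 members with it 4 were called lower, and of the 18 without it 7 were. The called members were thus found both with and without these letters.

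**Figure D4:**
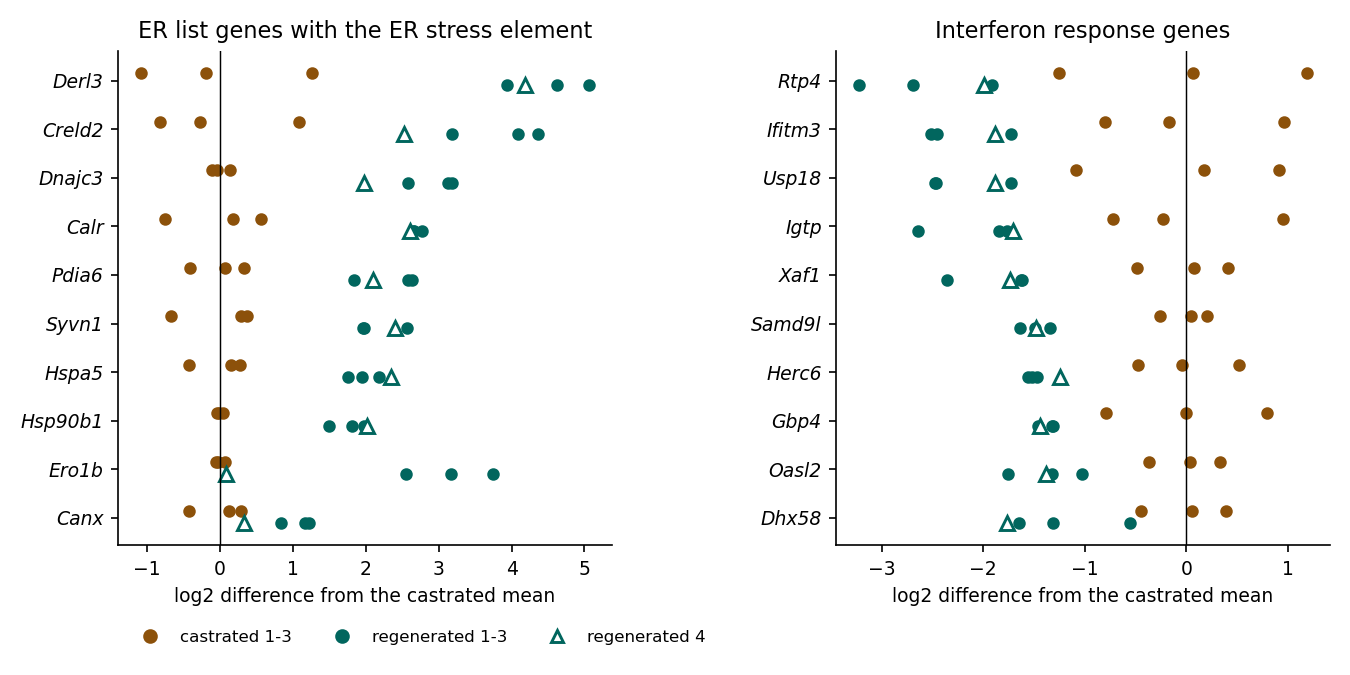
Difference of each array from the castrated mean in log2 units (horizontal axis) for the 10 ER folding genes whose promoter window holds the ER stress element (left) and the 10 interferon response genes with the largest called falls (right). Brown points are the 3 castrated arrays, green points regenerated replicates 1 to 3 and open triangles regenerated replicate 4, which lies with the castrated arrays for Ero1b and next to them for Canx, and lies close to the other regenerated arrays for Rtp4, Ifitm3 and Xaf1.

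Genes of antigen presentation moved unevenly. Of 17 measured MHC class I presentation genes, 5 were called lower and 1 higher, where all genes tested gave 3.01% and 1.97%. Without replicate 4 it was 4 and 1. The lower count was 3 without castrated replicate 2 or 3 or regenerated replicate 2 or 3. Psmb10, a subunit of the immunoproteasome, which cuts peptides for presentation, read 10.68, 10.51 and 11.01 in castrated arrays and 8.75, 8.30, 8.20 and 7.82 in regenerated arrays (fell by 2.47 ± 0.32 log2, limma adjusted p = 0.00179). Psmb8 and Psmb9, the other inducible subunits, fell by 1.65 and 1.10, the second of which did not pass without replicate 4 (limma adjusted p = 0.0521). The proteasome activator Psme1 fell by 0.78 and the class I molecule H2-M3 by 1.03. B2m, the invariant chain of class I molecules, was the higher gene, at 18.33, 18.72 and 18.60 against 19.33, 19.34, 19.43 and 19.22 (0.78 ± 0.12 log2, limma adjusted p = 0.00508). Of 12 MHC class II genes, H2-Aa fell by 1.08 and H2-Ab1 by 1.14 log2, and H2-Ab1 did not pass without replicate 4 (limma adjusted p = 0.0525). Neither passed without castrated replicate 1 or 2 or regenerated replicate 3.

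Chemokines and inflammatory genes were called lower in both lists. Of 34 chemokine genes, 10 were lower, where 3.01% of all genes were. It was 9 without regenerated replicate 4, 6 without regenerated replicate 2 or 3 and 5 without castrated replicate 3. In all 7 arrays 21 of the 34 stayed under the background limit. Cxcl15, an epithelial neutrophil chemokine, read 12.81, 10.44 and 13.12 in castrated arrays and 7.42, 9.37, 9.42 and 7.86 in regenerated arrays (fell by 3.61 ± 0.72 log2, limma adjusted p = 0.0175, and 0.0719 without castrated replicate 3). Cxcl2 (-3.03 log2), the mucosal chemokine Cxcl17 (-2.82) and Cxcl16, which is made as a membrane-bound protein (-2.64), fell as well. Cxcl1 fell by 2.17 and did not pass without replicate 4 (limma adjusted p = 0.0689). Of 34 NF-kB targets and inflammatory cytokines, 11 were lower, against the same 3.01%, and 10 without replicate 4. Il1rn, the antagonist of the interleukin-1 receptor, fell by 2.48, Tnf by 1.91, the death ligand gene Tnfsf10 by 1.88, Nfkbia, the inhibitor of NF-kB, by 1.77 and the adhesion molecule Icam1 by 1.52 log2. Tnfsf10 had little spread, with 5.40, 5.35 and 5.79 in castrated arrays and 3.65, 3.60, 3.72 and 3.56 in regenerated ones, all under the background limit.

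Part of the immediate early genes, which cells switch on within minutes of a stimulus, fell too. Of 38 measured, 15 were called lower and 0 higher by limma, where 3.01% of all genes were lower, and 17 and 0 without replicate 4, where 3.49% were. The other 23 did not pass with all arrays, and 27 had an unadjusted p under 0.05 with all arrays. The median change was -0.96 log2. Egr2, a zinc finger factor, read 11.96, 12.11 and 11.24 in castrated arrays and 8.78, 8.41, 7.46 and 9.71 in regenerated arrays (fell by 3.18 ± 0.47 log2, limma adjusted p = 0.00354). Dusp5, a phosphatase that switches off ERK, read 12.62, 12.43 and 12.27 against 9.98, 9.68, 8.39 and 9.12 (fell by 3.14 ± 0.42 log2, limma adjusted p = 0.00203). Regenerated replicate 3 was the lowest array in both genes and the groups did not overlap. The nuclear receptor Nr4a3 (-2.99 log2), the ERK phosphatase Dusp6 (-2.71) and Fosl2, an AP-1 subunit (-2.65), fell too. Such genes are also known to respond to tissue dissociation and sorting, whose part in the result was not tested.

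Keratins and progenitor markers changed among the epithelial genes. Krt8 read 17.41, 17.52 and 16.68 in castrated arrays and 15.10, 15.61, 15.16 and 14.73 in regenerated arrays (fell by 2.05 ± 0.32 log2, limma adjusted p = 0.00517). Its partner Krt18, the other keratin of simple epithelia, read 18.65, 18.65 and 18.21 against 16.67, 17.01, 16.90 and 16.66 (fell by 1.69 ± 0.16 log2, limma adjusted p = 0.00039). Krt23 fell by 4.70 log2, Krt17 by 1.15 and Krt80 by 0.93, which makes 5 of 21 measured keratins, where 3.01% of all genes were lower. Without replicate 4 the same number was lower and 1 was higher. The sorting marker gene Cd24a was not called (16.04, 15.93 and 16.12 against 14.87, 15.39, 15.12 and 15.96, limma adjusted p = 0.156), but passed without replicate 4 (limma adjusted p = 0.0174). Itga6, which encodes CD49f, read 9.64, 10.47 and 8.78 against 7.68, 8.54, 7.82 and 8.85 (limma adjusted p = 0.0949).

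Of 27 markers of proximal luminal progenitors, cells near the urethra that are rich in castrated prostate, 6 were called lower and 3 higher. All genes tested gave 3.01% and 1.97%. Without regenerated replicate 4 it was 6 lower and 4 higher. Cd44, the hyaluronan receptor, read 10.84, 9.46 and 10.14 in castrated arrays and at most 8.45, in replicate 4, in regenerated arrays (fell by 3.04 ± 0.50 log2, limma adjusted p = 0.00698). Plaur, the urokinase receptor, fell by 3.25 (limma adjusted p = 0.0252, and 0.0917 without castrated replicate 2) and Ly6d, a surface marker of castration-resistant luminal cells, by 2.38 log2. Psca, prostate stem cell antigen, rose: 6.68, 7.06 and 6.53 against 9.74, 11.40, 10.66 and 10.88 (3.91 ± 0.39 log2, limma adjusted p = 0.000459). Its regenerated arrays were all above its castrated arrays, opposite to Cd44, Plaur and Ly6d. Psca was 1 of the 3 members called higher, and the others are not described here. The lower count was 3 without castrated replicate 2 or regenerated replicate 1.

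Ion channels and fluid transporters split in both directions, 8 higher and 7 lower of 36, where all genes tested gave 1.97% and 3.01%. Without replicate 4 it was 8 and 6, where all genes gave 3.57% and 3.49%. Slc26a4, the anion exchanger pendrin, read 5.07, 5.26 and 4.53 in castrated arrays and 10.88, 9.29, 10.15 and 7.14 in regenerated arrays (4.42 ± 0.73 log2, limma adjusted p = 0.00694). Trpv6, an epithelial calcium channel, read 5.59, 5.24 and 5.65 against 9.93, 10.73 and 11.59 in regenerated replicates 1 to 3 and 6.23 in replicate 4 (4.13 log2, limma adjusted p = 0.0413, and 0.000114 without replicate 4). Without castrated replicate 2 it did not pass (limma adjusted p = 0.13). Gabrp, which encodes a GABA-A receptor subunit, read 13.48, 13.19 and 13.96 against 8.44, 11.03, 9.91 and 9.56 (fell by 3.81 ± 0.50 log2, limma adjusted p = 0.002). Car2, carbonic anhydrase 2, fell by 4.08 log2. The higher count was 4 without any single array among the 3 intact, the 3 castrated and regenerated replicates 2 and 3, and the lower count was 4 without regenerated replicate 3. Of 28 claudins and tight junction genes, Cldn10 rose by 1.73 log2, Cldn4 fell by 2.12 and Cldn1, under the background limit in all 7 arrays, by 0.87. Cldn10 did not pass without castrated replicate 1 or 2 or regenerated replicate 2 or 3, nor Cldn4 without castrated replicate 1 or 2 or regenerated replicate 1 or 3.

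Growth factor genes gave a few large changes. Tgfb2, a ligand of the TGF-beta family that restrains epithelial growth, read 11.66, 11.84 and 11.31 in castrated arrays and 7.47, 5.94, 6.55 and 6.85 in regenerated arrays (fell by 4.90 ± 0.32 log2, limma adjusted p = 2.67e-05). Bmpr1b, a receptor of the bone morphogenetic proteins, went up from 6.37, 6.20 and 6.99 to 11.30, 10.79, 10.95 and 9.51 (4.12 ± 0.39 log2, limma adjusted p = 0.000314). Tgfb3 fell by 1.33 and Bmp3, under the background limit in all 7 arrays, by 1.02, and Bmp7 rose by 1.81 log2. That makes 2 higher and 3 lower of 39 in the family, where all genes tested gave 1.97% and 3.01%. The higher count was 1 without any single array among the 3 intact arrays, castrated replicate 1 and regenerated replicates 1 to 3. Among EGF receptor ligands, Egf rose by 2.02 log2, whereas Hbegf (-2.30), Btc (-1.06) and Tgfa (-0.87) fell. Of the other growth factors and receptors 4 of 34 were lower: Gas6, the ligand of the Axl receptor family (-2.78 log2), Pdgfc (-2.54), the hepatocyte growth factor receptor Met and Fgfr1 (-1.28). In the Wnt list 1 of 44 passed, a share under the 3.01% of all genes called lower. It was Lgr5, a receptor of the R-spondins, at -0.93 log2, and without regenerated replicate 4 the counts were 1 higher and 2 lower. In the Notch list the modifier Rfng rose by 1.62 log2, while the ligand Jag1 fell by 1.25 and the coactivator Maml2 by 1.36.

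Genes of the cell cycle were mostly under the background limit, as were most genes on the array. Of 52 measured, 38 stayed under it in all 7 arrays, while 20334 of all 30142 genes had both group means at or under it. Limma called 1 higher and 1 lower, shares no higher than the 1.97% and 3.01% of all genes. Without regenerated replicate 4 it was 3 and 2. Ccnd2, cyclin D2, read 6.16, 5.68 and 6.20 in castrated arrays and 11.37, 8.61, 9.50 and 8.79 in regenerated arrays (3.55 ± 0.81 log2, limma adjusted p = 0.0334, and 0.117 without castrated replicate 2). Pcna, the sliding clamp of DNA replication, read 12.25, 12.29 and 12.38 against 11.26, 11.11, 11.05 and 10.52 (fell by 1.32 ± 0.23 log2, limma adjusted p = 0.0096). Mki67, a marker of cycling cells, was 3.73, 3.99 and 3.63 in castrated arrays, 3.71, 3.65 and 3.77 in regenerated replicates 1 to 3 and 6.37 in replicate 4. Of 40 apoptosis regulators 5 were called lower, where 3.01% of all genes were, and without regenerated replicate 4 it was 3 higher and 6 lower. With all arrays Casp4 had the largest fall, followed by Bcl2l14 (-2.24), Mcl1 (-0.80), Bok (-0.76, under the background limit in all 7 arrays) and Bcl2l11 (-0.64). The lower count was 2 without any single array among the castrated arrays, intact replicates 1 and 2 and regenerated replicates 2 and 3, and 3 without regenerated replicate 1.

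Lists of the ribosome and of energy metabolism differed. Of 28 cytosolic ribosomal protein genes, 5 were called lower, where 3.01% of all genes were. Rpl12 was the largest at -1.39 log2, and all 28 fitted changes were below 0 with a median of -0.41. In 23 of the 28 every regenerated array lay below every castrated array, and 16% of all genes had no overlap in either direction. The count called was 1 without castrated replicate 2 or 3 or regenerated replicate 2, 2 without intact replicate 2 and 3 without castrated replicate 1 or intact replicate 1. For Rpl12, replicate 4 had the lowest value, 14.39 against 15.31 to 15.67 in the other regenerated arrays and 16.36 to 16.78 in castrated arrays. Another 38 entries of that list were not measured under a single symbol and are not analysed here. Among nucleolar proteins Nop58, Ncl, Npm1 and Mybbp1a fell (-2.11, -1.26, -0.93 and -0.78 log2), 4 of 41 measured. That count was 0 without castrated replicate 2 or 3 or regenerated replicate 2 or 3, and 1 or 2 without intact replicate 1 or 2 or regenerated replicate 1. Mybbp1a did not pass without regenerated replicate 4 (limma adjusted p = 0.0582). In oxidative phosphorylation 1 of 51 passed, a share close to the 1.97% of all genes called higher. It was Ndufa1, a subunit of complex I, at 0.90 log2. Of 60 mitochondrial ribosomal proteins limma called 0, with 11 at an unadjusted p under 0.05. In glycolysis and the citrate cycle the gluconeogenic Fbp1 fell by 4.74 log2, from 11.37, 10.26 and 10.23 to 5.33, 5.73, 5.80 and 6.66 (limma adjusted p = 4.91e-05), and Fbp2 fell by 1.56 log2. Aldoc, an aldolase, was the third gene called lower of 36, and without regenerated replicate 4 it was 2 higher and 3 lower.

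Most markers of leukocytes, stroma, endothelium and neuroendocrine cells were at background: 18 of 22 myeloid and 12 of 12 endothelial markers stayed under the limit in all 7 arrays, as did 14 of 16 stromal, 14 of 15 lymphocyte and 9 of 9 neuroendocrine markers. For endothelial and neuroendocrine markers limma called 0, with 1 and 0 at an unadjusted p under 0.05. The log2 summed level of the myeloid markers was 10.20 to 10.85 in castrated and 9.91 to 11.77 in regenerated arrays. Aif1 was the called member, at 4.78, 5.35 and 5.78 against 4.39, 4.60, 4.47 and 4.39, and did not pass without replicate 4 (limma adjusted p = 0.0512). Lymphocyte markers summed to 9.10 to 11.84 in castrated and 7.99 to 8.57 in regenerated arrays, almost wholly through Cd3e, a chain of the T cell receptor complex. It read 11.32, 11.76 and 8.26 against 6.56, 5.73, 5.94 and 7.38 (fell by 4.04 ± 0.87 log2, limma adjusted p = 0.0253, and 0.103 without castrated replicate 2), while its partner Cd3g stayed at 4.33 to 4.79 and 4.15 to 4.32. The part of T cells in the falls of immune genes was not tested.

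Stromal markers summed to 8.46 to 9.73 in castrated and 11.16 to 11.98 in regenerated arrays through Dcn, decorin, which read 6.88, 9.09 and 6.63 against 11.62, 11.01, 11.89 and 10.94 (3.83 ± 0.57 log2, limma adjusted p = 0.00394). Of 17 basal markers, Palld fell by 1.82 and Krt17 by 1.15 log2, and the defining Trp63 stayed between 3.88 and 4.63. Among urothelial markers Upk3a, a uroplakin of the bladder surface, read 7.61, 9.13 and 11.06 in castrated arrays and 4.06, 4.08, 4.20 and 4.17 in regenerated arrays (fell by 5.14 ± 0.59 log2, limma adjusted p = 0.000933). Upk1b fell by 2.29 and Foxq1 by 2.33 log2, which with Upk3a makes 3 lower of 10, or 1 without castrated replicate 3. Psca, which is on this list too, was called higher. Of the 10 markers 4 stayed at background. The log2 summed level of all 10 was 17.61 to 18.46 in castrated and 16.87 to 18.51 in regenerated arrays, so the sums overlapped. Seminal vesicle markers summed to 13.95 to 15.64 in castrated and 9.53 to 17.44 in regenerated arrays. Svs5 read 6.49, 6.23 and 7.10 in castrated arrays and 10.96, 11.64, 5.09 and 15.59 in regenerated arrays (limma adjusted p = 0.282). Spinkl, which that list shares with the secretory products, was its called member, at 2.99 log2.

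The position of each regenerated array was then followed between the castrated mean and the mean of the other 3 regenerated arrays. The genes used for an array were those called without it with a change of at least 1 log2, so the gene sets differ between arrays. The reference mean of replicates 1 to 3 includes replicate 4, whereas that of replicate 4 does not. The percentages of replicate 4 and of the others are therefore not like measures. Replicate 4 covered a median of 46.9% of the way on the log2 scale for 739 genes called higher, and 90.6% for 599 genes called lower. The other 3 arrays covered 96.7% to 108% for their higher genes and 89.4% to 98.6% for their lower genes. Thus 52.8% of the higher genes lay less than 50% of the way in replicate 4, against 0.37% to 14.8% in the others, and 15.5% of the lower genes did, against 1.64% to 14.8%. By list, replicate 4 covered a median of 93.1% for 19 secretory products, 60% for 39 ER folding genes, 61.8% for 16 ER to Golgi genes and 48.9% for 9 amino acid genes, and 83.6% for 12 interferon, 126% for 7 chemokine and 86% for 15 immediate early genes. These values are a description of 1 array and were not tested.

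**Figure D5:**
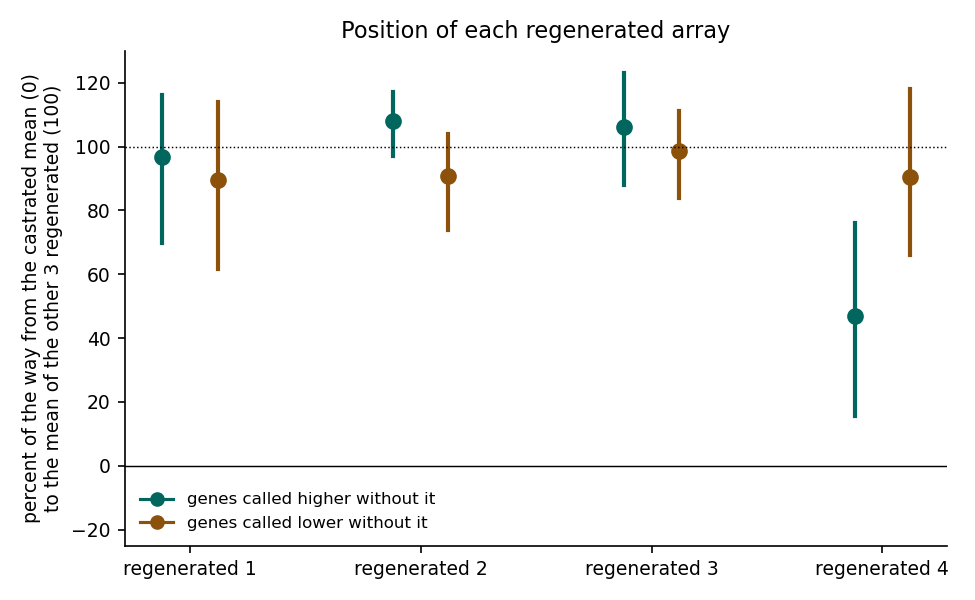
Position of each regenerated array on the way from the castrated mean (0%) to the mean of the other 3 regenerated arrays (100%), as the median (point) and quartiles (line) over genes called without that array with a change of at least 1 log2. For genes called higher (green) replicate 4 lies at 46.9% and the others at 96.7% to 108%, and for genes called lower (brown) all 4 lie between 89.4% and 98.6%. The gene sets differ between arrays, and the 100% mark of replicates 1 to 3 includes replicate 4.

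Replicate 4 was also at least 1 log2 above all other regenerated arrays in 584 genes and below them in 594, against 17 to 92 genes for the other arrays. The called genes in which it lay farthest from the mean of the other 3 towards the castrated mean included Trpv6, Cdcp3, Timp4, Asrgl1 and Fam3b. Cdcp3 read 14.26, 10.59 and 10.83 in castrated arrays, 19.00, 18.05 and 18.22 in regenerated replicates 1 to 3 and 15.13 in replicate 4, and Fam3b, which encodes a secreted cytokine-like protein, 5.65, 5.42 and 5.30, then 8.81, 9.59 and 10.51, then 6.41. Those in which it lay beyond the others included Tcaf3, C1rb, Atp12a, a proton pump, and Slc18a1, a vesicular amine transporter. Small nucleolar RNAs, which guide changes of ribosomal RNA bases, were high in replicate 4: of 68 measured, 39 had their highest regenerated value there, and their median was 7.57 against 6.68 to 6.93 in the other regenerated and 6.70 to 6.98 in castrated arrays. Copies of the U3 RNA gene such as Rnu3b1 read 14.42 there and 10.65 to 12.04 in the other 3, and near-identical copies cannot be told apart. The part of RNA composition in the position of replicate 4 was not tested.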

How the data were processed

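RNA of sorted luminal cells was hybridised to Affymetrix mouse whole-transcript arrays, and the deposited values are log2 intensities. The submitters' processing notes name Affymetrix Expression Console and RMA, and versions and the genome build are not given in the sources used here. Of 72688 rows, 65956 were not controls, 30604 of those had 1 gene symbol, 2146 had several and 33206 had none listed. Symbols followed the platform annotation, and 827 were brought up to date from RefSeq names (GRCm38.p6). Where a gene had more than 1 row (355 genes), its brightest row on average was used, which left 30142 genes. Groups came from the sample titles.

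A 3-group model over all 10 arrays was fitted with limma 3.58.1 (lmFit, eBayes with a mean-variance trend) in R 4.3.3, with Benjamini-Hochberg adjustment over all genes, and the fit was tested on simulated data. The genes and the 52 lists (1507 of 1673 entries measured) were chosen with earlier results of these data known. Named genes were the 15 largest rises and 15 largest falls among genes called with and without regenerated replicate 4 whose castrated and regenerated arrays do not overlap. To these came up to 5 called members per list, the sort and reference genes, and the 10 genes farthest to either side in replicate 4. Predicted, non-coding, olfactory and vomeronasal symbols and those ending in Rik were left out of the largest rises and falls and of the replicate 4 genes. A secretory product whose symbol ends in Rik rose by 9.39 log2 (limma adjusted p = 5.96e-05) and is not described here. Genes outside the naming rules are Rnase1, B2m, Xbp1, Atf6, Cd3g, Tnfrsf14, Trp63, Svs5, Nedd4l, Steap2, Pmepa1 and the promoter genes Calr, Canx, Ero1b, Hsp90b1, Hspa5, Pdia6, Syvn1 and Alg12, chosen after their values were seen. Alternatives covered the arrays fitted, trend, array weights, centring, quantile normalization, background filter, rows per gene, least change, a replicate block and each array left out. The number of arrays limits the precision.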

Additional observations from a re-analysis of the deposited data

Results flagged for a closer look

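Among the 189 genes named, 14 had 1 regenerated array so far from the other 3 that the gap, as a share of the range, exceeded Dixon's critical value, a limit that chance passes in about 5 percent of groups. Replicate 4 was the far array in 5 of them. It was lower for Aldh3a2 (14.69 against 16.22 to 16.35), Fkbp5 (6.86 against 8.15 to 8.37) and Msmb (18.59 against 19.29 to 19.40), and higher for Ly6d (6.18 against 4.93 to 5.13) and Mki67 (6.37 against 3.65 to 3.77). Replicate 2 was the far array in another 5, all of them immune genes or a growth factor receptor. It was higher for H2-Aa (4.99 against 4.30 to 4.37), H2-Ab1 (6.42 against 5.45 to 5.53) and Fgfr1 (6.81 against 5.89 to 6.04), and lower for Igtp (5.24 against 6.04 to 6.18) and Xaf1 (5.92 against 6.54 to 6.66). Replicate 1 was higher for Psmb9 (7.50 against 6.88 to 6.95) and lower for Nedd4l (9.52 against 10.15 to 10.27). Replicate 3 was lower for Nr4a3 (5.65 against 7.19 to 7.50) and higher for Spinkl (9.06 against 7.08 to 7.33).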

How the results depend on the processing

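With all arrays 1500 genes were called, 593 higher and 907 lower. With only the castrated and regenerated arrays the counts were 822, 344 and 478. Array weights gave 1032 higher genes, and a least change of 1 log2 left 589 lower genes. With each array left out in turn, the genes called ranged from 816 to 2127, those higher from 290 to 1076 and those lower from 526 to 1051. The block on the replicate number gave 1637 genes called. Number 4 occurs only among the regenerated arrays, so the block also takes replicate 4 out of the comparison. Leaving out replicate 4 without a block gave 2127. Whether the numbers pair the samples is not stated. Deviations from the group means of same-numbered castrated and regenerated arrays had correlations of 0.11, -0.16 and -0.15, and 3 pairs cannot decide whether the numbers mark a shared batch. The least change of 1 log2 and the fit of every row were not followed gene by gene. Named genes with a smaller change, such as Cd274, do not pass that least change. Of 175 called genes named, 0 changed direction under the other settings and 114 kept their call under every one of those. The other 61 lost it under at least 1 setting, and each of them without at least 1 single array: Aif1, Aldh3b2, Atp12a, Bcl2l11, Bcl2l14, Bhlha15, Bmp7, Bok, Btc, C1ra, Ccnd2, Cd276, Cd3e, Cldn10, Cldn4, Cxcl1, Cxcl15, Cxcl17, Esr1, Fam3b, Foxq1, Gas6, Gnmt, H2-Aa, H2-Ab1, H2-M3, Hoxb13, Ifitm3, Krt80, Lars, Man1a, Mcl1, Mvd, Mybbp1a, Ncl, Nfkbia, Nop58, Npm1, Odc1, Plaur, Pmepa1, Psmb9, Psme1, Pvr, Rnase1, Rnu3b1, Rpl12, Rtp4, Scd1, Slc1a5, Slc30a10, Slc39a8, Spdef, Steap2, Tars, Tgfb3, Tnfrsf14, Trpv6, Upk1b, Usp18 and Yars. Leaving out 1 array cost between 7 (regenerated replicate 4) and 50 (regenerated replicate 3) of these calls. Fitting only the castrated and regenerated arrays cost 46, the replicate block 25 and another quantile normalization 18. The cause was not tested. In 20334 genes both group means lay at or under the highest background value of 6.40, where a change cannot be sized.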
